A study of Mus musculus with 167 samples.

Results

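The livers of wild-type mice killed on day 91 of phenobarbital dosing were compared with those of wild-type control mice of the same day. The labels place 5 phenobarbital animals and 4 control animals in this comparison, which is 9 of the 167 arrays of the series. All animals were male C57BL/6 mice from a commercial breeder and were assigned to the arms at random. The labels give the same age, 9 to 11 weeks, for all days from 1 to 119. It can therefore not be the age at death on each of these days. Phenobarbital mice drank water with 0.05% (wt/vol) phenobarbital, and control mice had water without it. The comparisons further use CAR/PXR knockout mice of day 91 (5 phenobarbital, 5 control), which lack both receptors, mice of day 91 humanized for both receptors (4 phenobarbital, 5 control), which carry the human CAR and PXR genes, and the wild-type phenobarbital and control mice of days 1, 7, 14, 28 and 119. The last day followed a period without dosing. RNA came from powdered liver pieces of each animal, so that every value is a mean over all cells of the sample. Each gene is represented by 1 probe set of an Affymetrix mouse array, the one with the highest mean over all arrays. Of 18193 genes with such a probe set, 12621 were bright enough to be tested.

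Phenobarbital is a barbiturate that activates the constitutive androstane receptor (CAR, gene Nr1i3) indirectly, by blocking epidermal growth factor receptor signalling, so that CAR moves to the nucleus of the hepatocyte. CAR and the related pregnane X receptor (PXR, gene Nr1i2) pair with the retinoid X receptor and switch on genes for oxidation, conjugation and export of foreign compounds, with Cyp2b10 as the usual readout of CAR in mice. In the mouse, long exposure to phenobarbital also enlarges the liver and promotes liver tumours. All levels below are log2 values of the deposited arrays, where a difference of 1 stands for a doubling of the signal, and a difference is phenobarbital minus control. The value after ± is the standard error of the fit unless SD is written. A gene is called where limma's two-sided adjusted p (Benjamini-Hochberg over the 12621 genes) was under 0.05. Values of single animals are listed as phenobarbital animals 2021, 2022, 2023, 2024 and 2025 and control animals 1021, 1022, 1023 and 1025, in that order.

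The 250 bases before the annotated start of the 5 P450 genes that rose most are shown because these genes had the largest rises of their family and 3 of them lie in the Cyp2b cluster of chromosome 7. The sequences are the RefSeq promoter entries of build GRCm38.p6, plus strand, 5′ to 3′, at chr7:25897408-25897657 (Cyp2b10), chr7:26061245-26061494 (Cyp2b13), chr7:26173159-26173408 (Cyp2b9), chr19:39060756-39061005 (Cyp2c65) and chr19:39006769-39007018 (Cyp2c55). Capitals mark AGGTCA, the hexamer that nuclear receptors of this class bind, and TATAAA, the core of a TATA box, on either strand.
Cyp2b10: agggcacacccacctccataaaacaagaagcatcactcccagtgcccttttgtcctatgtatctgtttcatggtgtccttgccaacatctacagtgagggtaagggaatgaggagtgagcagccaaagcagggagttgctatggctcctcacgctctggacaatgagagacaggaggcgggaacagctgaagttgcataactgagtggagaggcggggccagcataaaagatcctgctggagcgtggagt
Cyp2b13: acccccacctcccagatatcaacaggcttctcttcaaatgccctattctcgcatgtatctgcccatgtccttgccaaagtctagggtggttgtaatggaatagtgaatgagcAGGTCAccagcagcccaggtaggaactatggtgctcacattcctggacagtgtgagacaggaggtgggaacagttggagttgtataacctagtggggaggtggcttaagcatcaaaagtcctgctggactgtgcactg
Cyp2b9: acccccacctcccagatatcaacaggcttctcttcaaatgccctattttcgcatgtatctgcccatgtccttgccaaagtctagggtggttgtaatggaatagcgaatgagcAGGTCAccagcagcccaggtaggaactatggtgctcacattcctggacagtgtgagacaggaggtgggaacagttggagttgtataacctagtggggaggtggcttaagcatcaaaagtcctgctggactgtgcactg
Cyp2c65: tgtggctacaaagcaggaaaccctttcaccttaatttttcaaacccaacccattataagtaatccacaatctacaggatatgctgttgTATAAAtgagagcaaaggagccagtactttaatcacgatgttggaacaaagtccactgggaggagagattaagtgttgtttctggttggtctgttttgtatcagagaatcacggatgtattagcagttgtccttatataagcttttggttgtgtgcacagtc
Cyp2c55: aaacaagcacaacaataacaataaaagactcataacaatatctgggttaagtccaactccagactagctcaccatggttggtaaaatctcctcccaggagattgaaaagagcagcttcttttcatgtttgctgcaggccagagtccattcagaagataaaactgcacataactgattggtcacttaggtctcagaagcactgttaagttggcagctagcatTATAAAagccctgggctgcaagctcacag
The Cyp2b13 and Cyp2b9 stretches were identical at 248 of 250 positions. Counted from 1 at the first printed base, with the Cyp2b13 base first, they differed by C48T and T104C. Each shared 182 identical positions of 260 alignment columns with Cyp2b10 (70%), whereas Cyp2c65 and Cyp2c55 shared 143 of 276 (51.8%). AGGTCA stood once in Cyp2b13 and once in Cyp2b9, with its first base at position −138 from the start, and not in the other 3 stretches. It was found in 14% of all 32851 promoter entries of the same length. TATAAA (12.4% of entries) stood at −162 in Cyp2c65 and at −29 in Cyp2c55. The related hexamer AGTTCA (11.8%) and the direct repeat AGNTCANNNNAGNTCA, the spacing that CAR prefers (0.103%), did not occur in these 5 windows on either strand. None of these motifs overlapped another here. A match is a description of letters, not of binding. Bases farther upstream of these genes were not searched.

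The arrays of the 9 animals were alike in brightness, with medians between 5.18 and 5.23. Nr1i3 lay between 8.01 and 8.87 in wild-type livers of day 91 and Nr1i2 between 6.91 and 7.62, and both were far lower in the other genotypes of that day (at most 5.22 and 4.08), as the labels imply. The hepatocyte marker albumin (Alb) had 14.85, 14.84, 14.86, 14.78 and 14.86 in phenobarbital livers, against 14.86, 14.88, 14.85 and 14.84 in control livers. Of the 6 hepatocyte markers tested only Apoa1, the main protein of high-density lipoprotein, was called (−0.15 ± 0.042, adjusted p = 0.0341 by limma), with overlapping animals. That call was lost without animal 2021, 2023, 2025, 1021, 1022 or 1023 (adjusted p between 0.0559 and 0.182). None of the tested markers of Kupffer cells and macrophages (11), endothelium (7), stellate cells (9), cholangiocytes (3), T and NK cells (3), B and plasma cells (3), neutrophils (3), adipose tissue (3), erythroid cells (1) or pancreas (7) was called by limma. The mean level of the 7 pancreas markers was 9.48 in phenobarbital animal 2025 and 8.07 in control animal 1021, against 6.02 to 6.36 in the other 7 animals, and control animal 1021 was also high for adipose markers (7.13, against 5.54 to 5.80). Among knockout mice, the array of phenobarbital animal 4024 of day 91 was nearly identical to that of animal 4019, which is labelled day 28. Both were kept as labelled.

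More genes were called higher than lower in phenobarbital livers on day 91, and every called change of at least 2-fold was a rise. Of 12621 genes, 269 were called (2.13%), 183 higher (1.45%) and 86 lower (0.681%) in phenobarbital livers. Among the called genes, at least 1.5-fold changes numbered 75 rises and 7 falls, at least 2-fold changes 39 rises and 0 falls, and 8 genes rose at least 8-fold. In 225 of the called genes no phenobarbital animal overlapped a control animal, whereas 831 of all genes tested (6.58%) showed such a gap, 340 higher (2.69%) and 491 lower (3.89%) in phenobarbital livers. The median difference of all genes was −0.016. Without control animal 1022 the count of called genes was 162, and without animals 2025 and 1021 together, an alternative added after seeing the data, it was also 162 (132 higher, 30 lower). In bulk liver, fewer cells of a type and less RNA per cell cannot be told apart.

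Phase I enzymes, which oxidise or hydrolyse drugs and steroids, held the largest rises. Of 27 tested members of this list 17 were called higher and 0 lower, against 1.45% and 0.681% of all genes. The median difference was 0.50, against −0.016 for all genes. Cyp2c65, an arachidonate-oxidising P450, had 8.40, 9.74, 8.27, 9.82 and 9.17 in phenobarbital livers, against 3.36, 3.23, 3.19 and 3.22 in control livers, a rise of 5.83 ± 0.17 or 56.9-fold (adjusted p = 2.67e-64 by limma). Every phenobarbital animal lay far above the highest control. The control values lay well below the array medians of 5.18 to 5.23, so that the size of the fold change rests on dim signal. Among the genes below, all controls of Sult3a1, Sult1e1, Tafa2, Rian, Nebl, Ackr3 and Hao2 also lay under these medians. So did some controls of Cyp2b13 and Abcc4. The sizes of these rises carry the same limit. The Cyp2c65 probe set is of the kind that the manufacturer marks as matching several related transcripts. Cyp2b10, the classical phenobarbital-inducible P450, had 12.53, 12.89, 12.65, 12.79 and 12.88 in phenobarbital livers, against 7.47, 6.95, 6.58 and 7.04 in control livers, a rise of 5.73 ± 0.20 or 53.2-fold (adjusted p = 7.21e-55 by limma). The phenobarbital animals lay closer together than the controls, and the arms were far apart. Its 3 probe sets gave 5.73, 5.89 and 6.20.

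Cyp2b13 and Cyp2b9, relatives of Cyp2b10 that adult mouse liver normally uses in females, rose as well. Cyp2b13 had 10.06, 9.79, 9.82, 9.44 and 8.96 in phenobarbital livers, against 5.13, 5.41, 4.64 and 4.86 in control livers (4.61 ± 0.21, adjusted p = 9.56e-42 by limma). Cyp2b9 had 10.28, 10.29, 10.29, 9.81 and 9.93 in phenobarbital livers, against 7.52, 6.95, 5.91 and 6.67 in control livers (3.36 ± 0.39, adjusted p = 1.64e-11 by limma). Phenobarbital animals 2024 and 2025 were the lowest of their arm for both genes, and the groups did not overlap. Probe sets of such close relatives can share signal, and how far they did was not tested. Cyp2c55, which oxidises arachidonic and linoleic acid, had 11.76, 12.51, 11.85, 12.42 and 12.56 in phenobarbital livers, against 8.25, 8.47, 8.63 and 8.63 in control livers, a rise of 3.72 ± 0.17 (adjusted p = 8.44e-44 by limma). Here animals 2021 and 2023 were low and the other 3 close together.

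**Figure D1:**
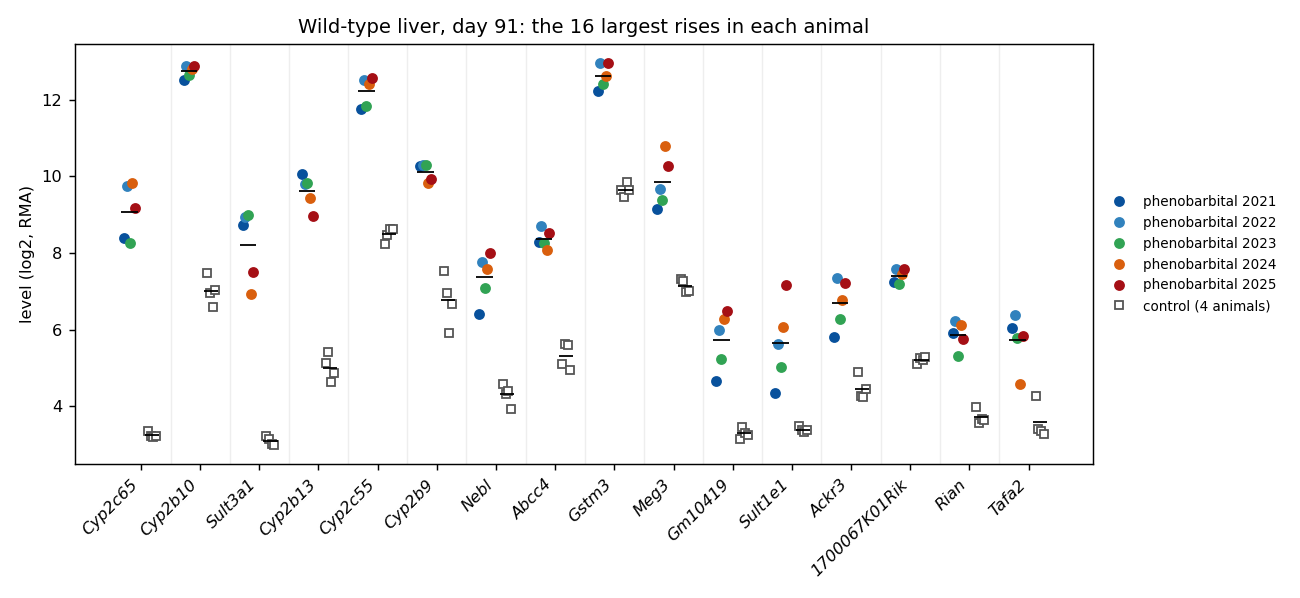
Log2 level of the 16 genes that rose most, with 1 filled point for each phenobarbital animal (left of each pair) and 1 open square for each control animal, and bars at the group means. No phenobarbital animal overlaps a control animal in any of the 16 genes, and the phenobarbital animals spread most for Sult1e1 (4.35 to 7.16) and Sult3a1 (6.92 to 9.00).

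The remaining phase I members moved by smaller amounts. Cyp2c29, an abundant hepatic P450, had 13.97, 13.98, 13.98, 13.96 and 13.84 in phenobarbital livers, against 13.21, 13.41, 13.52 and 13.44 in control livers (0.55 ± 0.072, adjusted p = 1.53e-09 by limma). Its narrow range in the phenobarbital arm lies near the top of the array's scale. Chosen after their values were seen, Cyp2c37 (1.23) and Cyp2c54 (1.22) rose by more than 2-fold, and Cyp1a2, which metabolises caffeine and arylamines, by 0.65. The carboxylesterases Ces2a (0.65), Ces1g (0.50) and Ces1d (0.49), the microsomal epoxide hydrolase Ephx1 (0.57) and the retinaldehyde dehydrogenase Aldh1a1 (0.26) were also called higher. Cyp3a11, the usual readout of PXR, was not called (0.080 ± 0.038, adjusted p = 0.306 by limma), at 14.36, 14.40, 14.38, 14.39 and 14.39 in phenobarbital livers against 14.30, 14.32, 14.31 and 14.28 in control livers. The animals did not overlap, but the gap was far below the change of the Cyp2b genes and the level was near the top of the scale. The other P450 of the list that was not called with a gap between the groups was Cyp3a13 (0.29, adjusted p = 0.124 by limma).

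Phase II enzymes, which attach sulfate, glutathione or glucuronate, rose in even larger number. Of 28 tested members 20 were called higher and 0 lower, against 1.45% and 0.681% of all genes, with a median difference of 0.47. Sult3a1, a sulfotransferase of amines that is female-biased in mouse liver, had 8.73, 8.93, 9.00, 6.92 and 7.49 in phenobarbital livers, against 3.22, 3.13, 3.002 and 2.98 in control livers, a rise of 5.13 ± 0.32 (adjusted p = 1.02e-29 by limma). Animals 2024 and 2025 stood more than 1 unit below the other 3. The estrogen sulfotransferase Sult1e1 had 4.35, 5.64, 5.04, 6.07 and 7.16 in phenobarbital livers, against 3.48, 3.38, 3.32 and 3.39 in control livers, a rise of 2.26 ± 0.23 (adjusted p = 1.3e-14 by limma). Here the order of the animals was another one, with 2021 lowest and 2025 highest.

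Of 7 glutathione transferases of the mu class tested, 6 were called higher, against 1.45% of all genes. Their differences varied in size, and those of all 7 ran from 0.063 to 2.98. Gstm3 had 12.22, 12.95, 12.42, 12.61 and 12.96 in phenobarbital livers, against 9.64, 9.45, 9.86 and 9.66 in control livers (2.98 ± 0.19, adjusted p = 1.02e-29 by limma). Gstm2 had 9.88, 10.64, 10.21, 10.34 and 10.73 in phenobarbital livers, against 9.00, 8.47, 8.96 and 8.85 in control livers (1.54 ± 0.17, adjusted p = 1.6e-12 by limma). In both genes animal 2021 was lowest and animals 2022 and 2025 highest. Gstm1 (1.04), Gstm4 (0.82), Gstm6 (0.60), Gstt3 of the theta class (1.21) and Sult1c2 (0.83) were called too. Glucuronidation genes moved less, with Ugt2b35 at 0.58, Ugt2b34 at 0.56 and Ugdh, which makes the glucuronate donor, at 0.45. Papss2, which makes the sulfate donor, rose by 0.31 (adjusted p = 0.0439 by limma). Gstp1 (−0.18), Mgst1 (0.026) and Sult1a1 (0.028) were not called. Over the alternatives tried, 16 to 18 phase I members and 16 to 20 phase II members were called higher.

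Of 15 hepatic transporters tested, 2 rose and 1 fell, against 1.45% and 0.681% of all genes, with a median of −0.073. Abcc4, an exporter of the blood-facing hepatocyte membrane that carries bile acid and steroid conjugates, had 8.29, 8.70, 8.26, 8.08 and 8.51 in phenobarbital livers, against 5.10, 5.61, 5.60 and 4.96 in control livers, a rise of 3.05 ± 0.18 (adjusted p = 3.94e-31 by limma). Abcc3, its relative on the same membrane, had 10.73, 10.76, 10.54, 10.55 and 10.61 in phenobarbital livers, against 10.10, 9.98, 9.92 and 10.14 in control livers (0.60 ± 0.11, adjusted p = 4.7e-05 by limma). The groups did not overlap in either gene. The uptake carrier Slco1a1 fell by 0.48 and is described with the male-biased genes. The bile salt carriers Abcb11 (−0.18) and Slc10a1 (0.0019) and the CAR and PXR target Abcc2 (0.19) were not called.

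Oxidative stress genes under NRF2 and the nuclear receptors themselves moved little. Of 9 NRF2 genes tested 2 rose, against 1.45% of all genes. The quinone reductase Nqo1 had 7.23, 6.99, 7.10, 6.72 and 6.96 in phenobarbital livers, against 6.72, 6.36, 6.60 and 6.36 in control livers (0.49 ± 0.14, adjusted p = 0.0282 by limma). Srxn1, which repairs oxidised peroxiredoxins, rose by 0.36 ± 0.095 (adjusted p = 0.0192 by limma). The Nqo1 call was lost without animal 2021, 2023, 1022 or 1025 (adjusted p between 0.0729 and 0.144), and that of Srxn1 without animal 2022, 1022 or 1023 (0.0634 to 0.0853). Of 14 nuclear receptors and partners only Ahr, the dioxin receptor, was called (0.75 ± 0.20, adjusted p = 0.0226 by limma). Its animals overlapped (10.45, 10.88, 10.60, 11.17 and 11.17 in phenobarbital livers against 10.53, 9.60, 10.18 and 10.12 in control livers), the call was lost without animal 2024, 2025 or 1022 (0.084 to 0.224), and the mean of its probe sets gave 0.44. Nr1i3 (−0.20 ± 0.12) and Nr1i2 (0.065 ± 0.13) were not called. Alas1, the rate-limiting enzyme of haem synthesis, had 11.53, 11.35, 10.49, 10.99 and 10.44 in phenobarbital livers and 9.77, 10.75, 9.09 and 11.29 in control livers (0.74 ± 0.59, adjusted p = 0.621 by limma). Its control animals alone ranged over more than 2 units. None of the 7 haem genes tested was called by limma.

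The Dlk1-Dio3 domain is an imprinted region from which the maternal chromosome makes several non-coding RNAs. Meg3 had 9.15, 9.67, 9.37, 10.79 and 10.26 in phenobarbital livers, against 7.33, 7.26, 6.98 and 7.01 in control livers, a rise of 2.70 ± 0.17 (adjusted p = 2.61e-30 by limma). Rian had 5.91, 6.24, 5.32, 6.12 and 5.75 in phenobarbital livers, against 3.98, 3.57, 3.66 and 3.64 in control livers (2.15 ± 0.24, adjusted p = 5.71e-13 by limma). Both were higher in every phenobarbital animal, with animal 2024 highest for Meg3 and animal 2022 for Rian. The third tested transcript of the domain, Mirg, was not called (0.20, adjusted p = 0.3 by limma). The 11 probe sets of Meg3 gave differences between 0.17 and 2.79, and their mean gave 1.34. Under the stricter filter and with probe sets averaged, Rian was too dim to be tested. Of 7 other imprinted genes only Peg3, a zinc finger gene expressed from the paternal copy, was called (0.62 ± 0.15, adjusted p = 0.00848 by limma). It lost the call without animal 2022 or 1022 (adjusted p = 0.0655 and 0.141).

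Another 5 of the 16 largest rises belong to no list of drug metabolism. Nebl, which encodes an actin-binding protein of muscle, had 6.42, 7.75, 7.09, 7.58 and 8.00 in phenobarbital livers, against 4.58, 4.31, 4.41 and 3.94 in control livers (3.06 ± 0.22, adjusted p = 1.86e-24 by limma). Ackr3, a scavenger receptor for the chemokine CXCL12, had 5.82, 7.34, 6.29, 6.76 and 7.23 in phenobarbital livers, against 4.90, 4.26, 4.25 and 4.44 in control livers (2.23 ± 0.29, adjusted p = 1.68e-09 by limma). Animal 2021 was lowest in both. Tafa2, a secreted chemokine-like protein, had 6.04, 6.38, 5.78, 4.57 and 5.83 in phenobarbital livers, against 4.27, 3.41, 3.35 and 3.28 in control livers (2.14 ± 0.33, adjusted p = 3.39e-07 by limma). Here the groups nearly touched, since animal 2024 was low and control animal 1021 high. The predicted genes Gm10419 (2.43 ± 0.18) and 1700067K01Rik (2.19 ± 0.13) were called as well, the first with a wide range in phenobarbital livers (4.67 to 6.50) and the second with a narrow one (7.19 to 7.59).

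Across the 16 rises the phenobarbital animals did not keep 1 order. Animal 2021 was the lowest of the 5 for 8 genes, animal 2024 for 4, animal 2023 for 3, animal 2025 for 1 and animal 2022 for 0. Among all 183 genes called higher, animal 2022 was the highest of its arm for 66 (36.1%) and animal 2025 for 54 (29.5%), against 18 (9.84%) for animal 2021 and 12 (6.56%) for animal 2023. Among the 86 genes called lower, animal 2021 was the highest of its arm, and so nearest to the controls, for 33 (38.4%). These are counts over genes that share the same arrays and carry no test.

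Among genes that differ between the sexes in mouse liver, the called female-biased ones were higher and the called male-biased ones lower, and most of either list was not called. Growth hormone, released in pulses in males and steadily in females, sets this sex bias through STAT5. Of 11 female-biased genes tested 4 rose and 0 fell (median 0.75), and of 13 male-biased genes 0 rose and 3 fell (median −0.14). Among all genes, 1.45% were called higher and 0.681% lower. Sult3a1, Cyp2b13 and Cyp2b9 also belong to the drug metabolism lists. Hao2, a peroxisomal hydroxyacid oxidase, had 6.55, 6.37, 6.80, 5.13 and 5.24 in phenobarbital livers, against 4.23, 4.29, 4.02 and 4.79 in control livers, a rise of 1.69 ± 0.20 (adjusted p = 2.3e-11 by limma). The other 7 female-biased genes were not called, among them Prom1 (1.08 ± 0.36, adjusted p = 0.0932 by limma), Cyp17a1 (0.75), Fmo2 (−0.36) and Cux2 (−0.11). Over the alternatives tried, 3 to 5 female-biased genes were called higher.

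Hsd3b5, a male-specific steroid dehydrogenase, had 11.03, 11.23, 10.51, 11.83 and 11.66 in phenobarbital livers, against 11.94, 11.96, 12.00 and 12.10 in control livers, a difference of −0.75 ± 0.18 (adjusted p = 0.00479 by limma). Animal 2023 was the lowest, and without it the difference was −0.56 (adjusted p = 0.0892). Cyp2u1, a fatty acid hydroxylase, fell by 0.54 (7.88, 7.73, 7.71, 7.89 and 7.65 in phenobarbital livers against 8.33, 8.41, 8.41 and 8.07 in control livers, adjusted p = 0.00252 by limma). Slco1a1, the organic anion uptake carrier, had 11.13, 10.75, 10.83, 11.64 and 11.47 in phenobarbital livers, against 11.61, 11.42, 11.80 and 11.73 in control livers (−0.48 ± 0.13, adjusted p = 0.0292 by limma). Phenobarbital animals 2024 and 2025 lay within the control range for Slco1a1, and the call was lost without animal 2022, 2023, 1021, 1023 or 1025 (0.0567 to 0.155). The count of male-biased genes called lower was 1 without animal 2023 and 1 with only the compared groups in the fit. Igf1, the main growth hormone target of the liver, was the only one of 11 growth hormone and STAT5 genes called (−0.28 ± 0.061, adjusted p = 0.00148 by limma), while Socs2 (−0.84) and Cish (−0.092) were not. Igf1 lost its call without animals 2025 and 1021 together (0.0566) and with only the compared groups in the fit (0.0611).

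The animals with the smaller rise of the called female-biased genes were also those with the higher Hsd3b5 and Slco1a1. Sult3a1, Hao2, Cyp2b13 and Cyp2b9 were lowest in animals 2024 and 2025, which were the highest 2 of their arm for Hsd3b5 and Slco1a1. Prom1, of the female-biased list but not called, went the other way and was highest in these 2 animals. Cyp2u1, also male-biased and called, was highest in animal 2024 and lowest in animal 2025. The mean level of the female-biased list was 6.86 and 7.00 in these animals, against 7.48 to 7.68 in the other phenobarbital animals and 5.62 to 5.97 in controls. The mean level of the male-biased list was 11.66 and 11.40, against 10.89 to 11.00 in the other phenobarbital animals and 11.23 to 11.42 in controls. The first mean includes Sult3a1, Hao2, Cyp2b13 and Cyp2b9 among its 11 genes, and the second includes Hsd3b5 and Slco1a1. Neither is therefore an observation separate from those genes. Moxd1, a member of the male-biased list that was not called, had 8.29 and 6.02 in these animals, against 3.92 to 4.31 in the other 3 and 4.04 to 5.41 in controls. Moxd1 is among the 13 genes of that list mean and raised it in these animals. The mean without Moxd1 was not computed. The interferon response list, of which no gene was called by limma, also stood at 7.54 and 7.44 in these 2 animals, against 7.05 to 7.18 in the other 3 and 6.89 to 7.12 in controls. Animal 2025 carried the high pancreas markers, and animal 2024 did not. Their part in these differences was not tested.

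**Figure D2:**
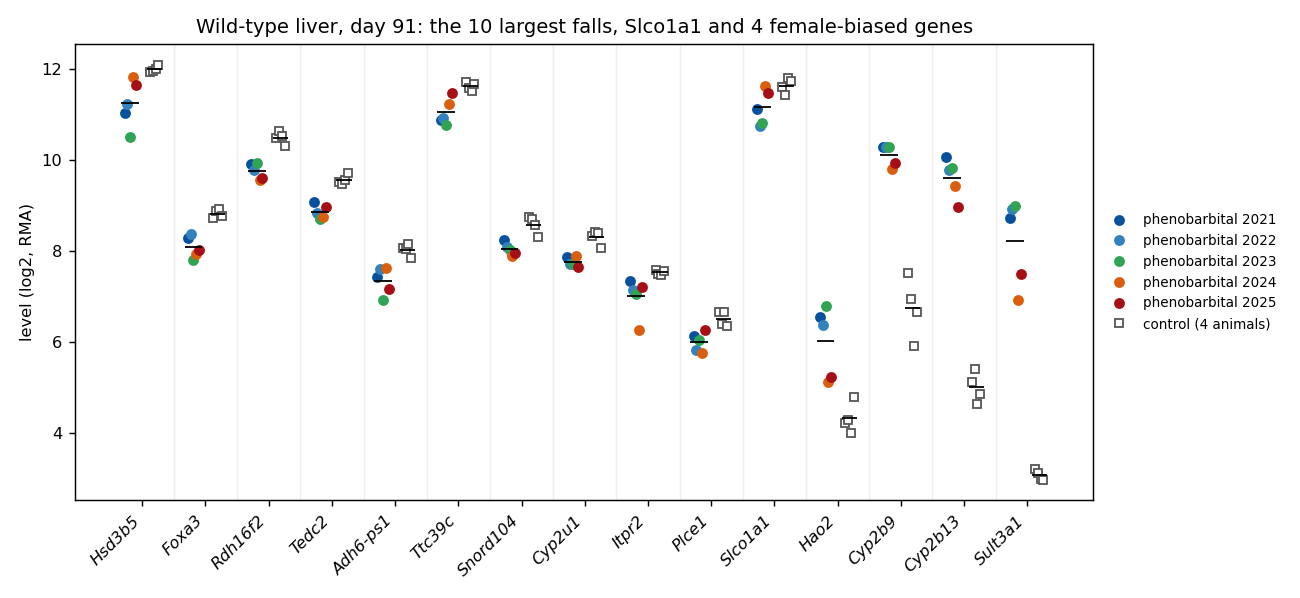
Log2 level of the 10 genes that fell most, of the male-biased carrier Slco1a1 and of 4 female-biased genes, with 1 filled point for each phenobarbital animal (left of each pair), 1 open square for each control animal and bars at the group means. Animals 2024 and 2025 lie highest of their arm for Hsd3b5 and Slco1a1 and lowest for Hao2, Cyp2b9, Cyp2b13 and Sult3a1.

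The falls were small and several hung on single animals. The 10 largest among genes without overlap ranged from −0.75 to −0.51. Foxa3, a forkhead factor of hepatocytes, had 8.28, 8.38, 7.80, 7.94 and 8.02 in phenobarbital livers, against 8.73, 8.88, 8.92 and 8.78 in control livers (−0.74 ± 0.20, adjusted p = 0.0181 by limma). It lost the call without animal 2023, 1022 or 1023 (0.0666 to 0.0713). Rdh16f2, of the retinol dehydrogenase family, had 9.92, 9.78, 9.93, 9.56 and 9.60 in phenobarbital livers, against 10.49, 10.63, 10.52 and 10.32 in control livers (−0.73 ± 0.17, adjusted p = 0.00398 by limma), and kept its call without any single animal. Plce1, a phospholipase C, fell by 0.51 (6.15, 5.84, 6.05, 5.76 and 6.27 in phenobarbital livers against 6.66, 6.40, 6.66 and 6.36 in control livers, adjusted p = 0.000454 by limma) and also kept it, but lost it with only the compared groups in the fit (0.0517). Itpr2, the calcium channel of the endoplasmic reticulum in hepatocytes, had 7.34, 7.15, 7.07, 6.26 and 7.22 in phenobarbital livers, against 7.59, 7.51, 7.48 and 7.56 in control livers (−0.53 ± 0.099, adjusted p = 6.62e-05 by limma). Animal 2024 was far below the rest, without it the difference was −0.34, and the mean of its 6 probe sets gave −0.11 (adjusted p = 0.28 by limma).

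The other 4 falls were calls that depended on single animals. The tubulin complex gene Tedc2 (−0.70 ± 0.20, adjusted p = 0.0341 by limma) lost its call without any of the 9 animals but 2021 (0.0529 to 0.096). Ttc39c (−0.57 ± 0.16, adjusted p = 0.0314 by limma) lost it without any but 2024 and 2025 (0.0518 to 0.115), and its 3 probe sets gave −0.57, −0.58 and −0.62. The pseudogene Adh6-ps1 (−0.67 ± 0.17, adjusted p = 0.015 by limma) lost it without animal 2023, 2025, 1022 or 1023 (0.0504 to 0.0896). The small nucleolar RNA Snord104 (−0.54 ± 0.15, adjusted p = 0.0302 by limma) lost it without animal 2023, 2024, 2025, 1021, 1022 or 1023 (0.0575 to 0.134).

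Cell division genes did not pass the test on day 91. Of 22 tested genes of DNA replication and 13 of mitosis none was called by limma (medians 0.049 and 0.019). The replication helicase subunit Mcm5 had 6.18, 7.11, 6.41, 6.58 and 6.97 in phenobarbital livers and 6.59, 6.09, 6.77 and 6.43 in control livers (0.18 ± 0.22, adjusted p = 0.781 by limma). The proliferation marker Mki67 (−0.073 ± 0.22), the topoisomerase Top2a (−0.027 ± 0.19) and the mitotic kinase Cdk1 (−0.0029 ± 0.16) had adjusted p-values of 0.926 to 0.997 by limma. Of 17 genes of G1 and growth control 2 were called higher, against 1.45% of all genes. Gadd45b, which restrains stress signalling and is a CAR target, had 6.07, 7.13, 6.33, 6.83 and 6.48 in phenobarbital livers, against 5.46, 5.61, 5.58 and 5.64 in control livers (0.99 ± 0.16, adjusted p = 2.34e-06 by limma). Cdkn2c, an inhibitor of cyclin D kinases, had 7.73, 7.71, 7.91, 8.03 and 7.72 in phenobarbital livers, against 7.43, 7.14, 7.39 and 7.24 in control livers (0.52 ± 0.10, adjusted p = 0.00015 by limma). Both were higher in 5 of 5 phenobarbital animals. Ccnd1 (−0.16) and Myc (0.24) were not called, and of 10 p53 targets none was called by limma.

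Of the perivenous and periportal genes, which mark the zones of the liver lobule, only Rhbg and Notum were called in these lists. Of 15 Wnt targets and perivenous genes 1 rose and 1 fell, against 1.45% and 0.681% of all genes. Rhbg, an ammonium carrier of perivenous hepatocytes, had 7.47, 7.71, 7.71, 7.72 and 7.79 in phenobarbital livers, against 7.32, 6.84, 6.79 and 6.91 in control livers (0.72 ± 0.12, adjusted p = 2.48e-06 by limma). Notum, an enzyme that inactivates Wnt proteins, had 6.88, 6.64, 6.60, 6.83 and 6.62 in phenobarbital livers, against 7.31, 6.92, 7.32 and 7.02 in control livers (−0.43 ± 0.095, adjusted p = 0.00162 by limma), and lost its call without animals 2025 and 1021 together (0.0855). The Wnt target Axin2 (−0.16 ± 0.13, adjusted p = 0.616 by limma) and glutamine synthetase Glul (−0.11 ± 0.069, adjusted p = 0.515 by limma) were not called. Nor was any of 10 periportal genes by limma (median −0.15), although all their differences were negative (−0.35 to −0.068). Of 9 oncofetal and progenitor genes none was called by limma. The fetal marker Afp had −0.41 ± 0.21 (adjusted p = 0.352 by limma), and the progenitor marker Prom1 had 6.12, 6.37, 6.31, 6.87 and 6.72 in phenobarbital livers and 5.52, 5.56, 5.32 and 5.21 in control livers.

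In lipid, sugar and bile acid metabolism almost nothing was called. None of 19 cholesterol synthesis genes (median 0.078), 22 lipogenesis and lipid droplet genes (−0.051), 18 PPAR alpha targets (−0.12) or 15 bile acid genes (0.0019) passed limma's test. Of the 18 PPAR alpha targets, 4 were lower and 0 higher without overlap between the arms, against 3.89% and 2.69% of all genes. Cyp7a1, which starts bile acid synthesis, had 0.58 ± 0.42 (adjusted p = 0.572 by limma). Of 14 genes of gluconeogenesis and glycogen Fbp1, a late enzyme of glucose synthesis, was lower by a small amount (−0.13 ± 0.039, adjusted p = 0.0478 by limma), and lost the call without any of the 9 animals but 2023 and 2024 (0.0528 to 0.179). Of 20 acute phase proteins only Orm3, an orosomucoid, was called, with 7.63, 7.63, 7.51, 7.75 and 7.20 in phenobarbital livers, against 6.44, 6.26, 5.89 and 6.14 in control livers (1.36 ± 0.18, adjusted p = 1.38e-09 by limma). Its relative Orm2 had 1.08 (adjusted p = 0.0747 by limma). None of 16 chaperone and unfolded protein response genes, 15 clock genes and 7 interferon genes was called by limma.

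**Figure D3:**
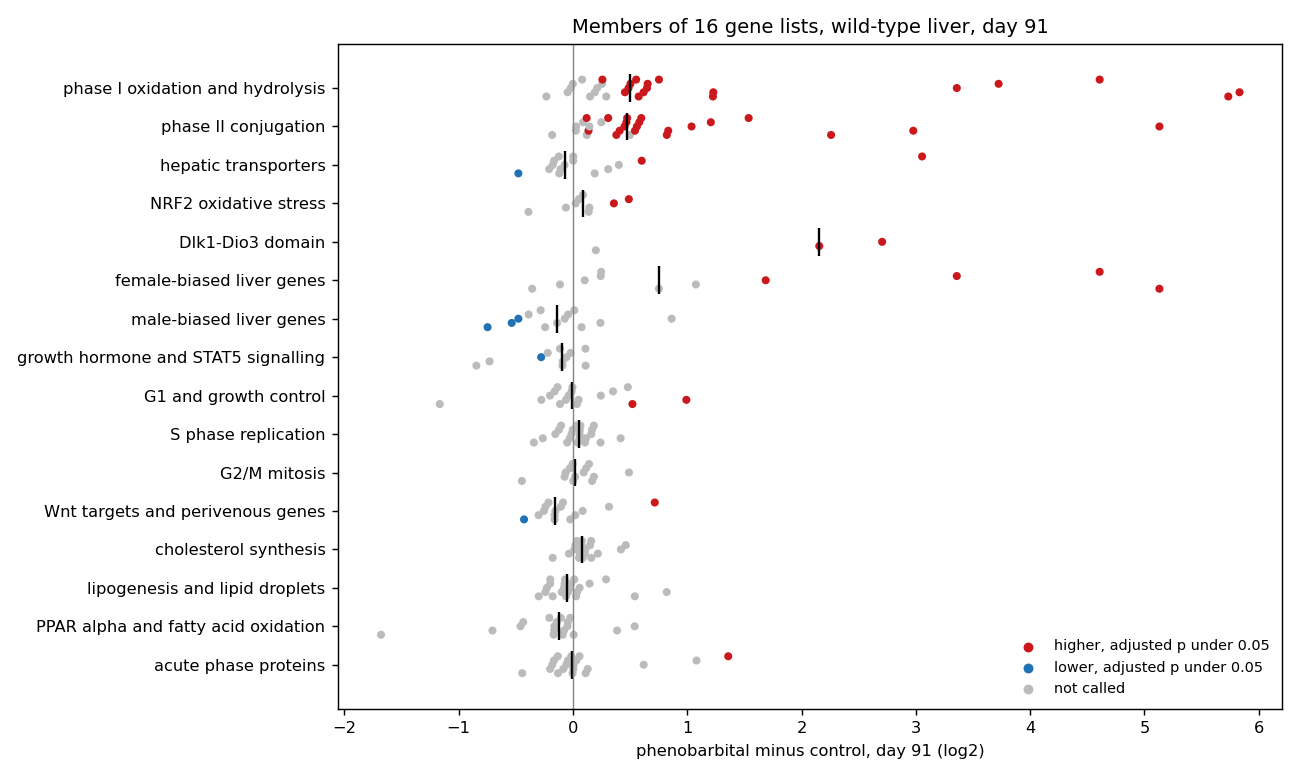
Difference between phenobarbital and control livers on day 91 (log2) for every tested member of 16 gene lists, coloured by limma's call, with a black bar at the median of each list. Both drug metabolism lists have their medians near 0.5 and hold the largest rises beside the female-biased genes, while the replication and mitosis lists lie around 0 without a call.

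In mice without CAR and PXR none of the 16 largest rises of day 91 was called. The 16 genes were chosen for their size in the wild-type samples, which also enter the difference between genotypes. In the knockout, phenobarbital changed the 16 genes by −0.076 (Cyp2c55) to 0.77 (Cyp2b9), with adjusted p-values of at least 0.123 by limma. The 5 largest differences in the wild-type direction were Cyp2c65 (5.83 ± 0.23, adjusted p = 2.7e-48 by limma), Cyp2b10 (5.66 ± 0.28), Sult3a1 (5.15 ± 0.44), Cyp2b13 (4.50 ± 0.29) and Cyp2c55 (3.80 ± 0.23). All 16 differences passed the test, with the smallest for Tafa2 (2.06 ± 0.45, adjusted p = 0.00323 by limma). Gadd45b also passed (0.94 ± 0.22, adjusted p = 0.0114 by limma), as did Cdkn2c (0.60 ± 0.14), Rhbg (0.63 ± 0.16) and Hao2 (1.69 ± 0.27). For Orm3 the knockout itself showed a rise of 0.76 ± 0.17, against 1.36 ± 0.18 in wild type, and the difference did not pass (0.60 ± 0.24, adjusted p = 0.349 by limma).

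Over all genes, 92 effects differed between wild-type and knockout mice (0.729%), 78 with the wild-type effect above (0.618%) and 14 below (0.111%). Without knockout animal 4024 there were 78. In the other direction the largest differences were Pde5a, a cyclic GMP phosphodiesterase (−0.57 in wild type and 0.38 in the knockout, difference −0.95 ± 0.25), Rdh16f2 (−0.73 and 0.22, −0.95 ± 0.24), the histone genes H2bc21 (−0.56 and 0.36, −0.92 ± 0.24) and H1f2 (−0.25 and 0.55, −0.79 ± 0.21), and Smim3 (−0.34 and 0.29, −0.63 ± 0.16). Their adjusted p-values by limma lay between 0.0216 and 0.0365, and each call was lost without some single animal. Pde5a lost it without 2021, 2022, 2024, 2025, 1021, 1022, 1025, 3021, 3023, 3025, 4023 or 4024 (0.0503 to 0.106), and Rdh16f2 without 1022, 3022, 3024, 4023 or 4024 (0.0538 to 0.0924). H2bc21 lost it without 2023, 2024, 1021, 1022, 1023, 3021, 3022, 3024, 4021, 4024 or 4025 (0.0517 to 0.14). H1f2 lost it without 2021, 2024, 2025, 1021, 1022, 1023, 3023, 3025, 4021, 4023 or 4025 (0.0502 to 0.0997), and Smim3 without 2024, 1025, 3025 or 4022 (0.0585 to 0.111). In the knockout itself 435 genes were called on day 91, 111 higher and 324 lower. Of the 183 genes called higher in wild type, 8 were called higher in the knockout too (4.37%, against 0.879% of all genes). Of the 86 called lower in wild type, 10 were called lower in the knockout (11.6%, against 2.57%).

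With the human receptors, most of the 16 genes rose as well, some of them less. Sult1e1 was the exception among the 16, with 0.38 ± 0.23 in humanized mice (adjusted p = 0.57 by limma), against 2.26 ± 0.23 in wild type. The difference passed for Cyp2b13 (4.61 ± 0.21 in wild type and 1.60 ± 0.21 in humanized mice, difference 3.01 ± 0.30, adjusted p = 5.8e-14 by limma), Sult3a1 (2.14 ± 0.45, 0.00697), Sult1e1 (1.88 ± 0.32, 9.81e-05), Cyp2b10 (1.53 ± 0.28, 0.000563), 1700067K01Rik (1.38 ± 0.19, 6.5e-08) and Cyp2c55 (1.15 ± 0.23, 0.00337). The Sult3a1 difference lost its call without humanized animal 6022 (1.70, adjusted p = 0.169). For Cyp2b9 (0.13 ± 0.56), Abcc4 (0.11 ± 0.26), Meg3 (0.11 ± 0.23), Rian (0.079 ± 0.33) and Ackr3 (−0.098 ± 0.41) the difference was close to 0 (adjusted p at least 0.97 by limma).

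Some genes rose in humanized livers by more than in wild-type ones. The largest such difference was Sult2a2, a hydroxysteroid sulfotransferase, with 3.39, 3.11, 3.11, 3.27 and 3.09 in wild-type phenobarbital livers and 2.94, 3.02, 3.13 and 3.17 in their controls, against a humanized effect of 4.59 ± 0.22 (difference −4.47 ± 0.31, adjusted p = 2.05e-24 by limma). Prom1 (1.08 in wild type and 3.86 in humanized mice, difference −2.78 ± 0.51) and 1810053B23Rik (0.21 and 2.89, −2.69 ± 0.31) showed the same order. The carbonyl reductase Cbr3 was called in both genotypes and rose less in wild type (0.75 ± 0.20 and 2.15 ± 0.20, difference −1.40 ± 0.29, adjusted p = 0.00465 by limma). The wild-type Cbr3 call was lost without animal 2021, 2022 or 1025 (0.061 to 0.0959), and the difference without animal 6021 (0.112). Simc1 fell in wild type (−0.37 ± 0.10) and had 0.25 ± 0.10 in humanized mice (difference −0.62 ± 0.14, adjusted p = 0.0221 by limma). The fall was lost without animal 2024, 2025, 1022 or 1023 (0.0515 to 0.154), the mean of its probe sets gave −0.13, and the difference was lost without 2024, 2025, 1022, 1023, 5021, 5024, 6021 or 6022 (0.0524 to 0.152).

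In all, 13 effects differed between wild-type and humanized mice (0.103%), 7 above (0.0555%) and 6 below (0.0475%). The count was 20 without humanized control animal 5025 and 21 without wild-type animal 2021. Of the 7 above, Fam171a1 lies outside the 16 largest rises. It had 1.24 ± 0.12 in wild type and −0.064 ± 0.12 in humanized mice (difference 1.31 ± 0.17, adjusted p = 1.03e-08 by limma). Of the 269 genes called in wild type, 108 were called in the same direction in humanized mice, which is 40.1% of the wild-type list and 39.1% of the 276 genes called in humanized mice. Among the 183 rises the share was 50.8% (1.48% of all genes were called higher in humanized mice), and among the 86 falls 17.4% (0.705%). The genotypes have their own control animals on day 91.

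**Figure D4:**
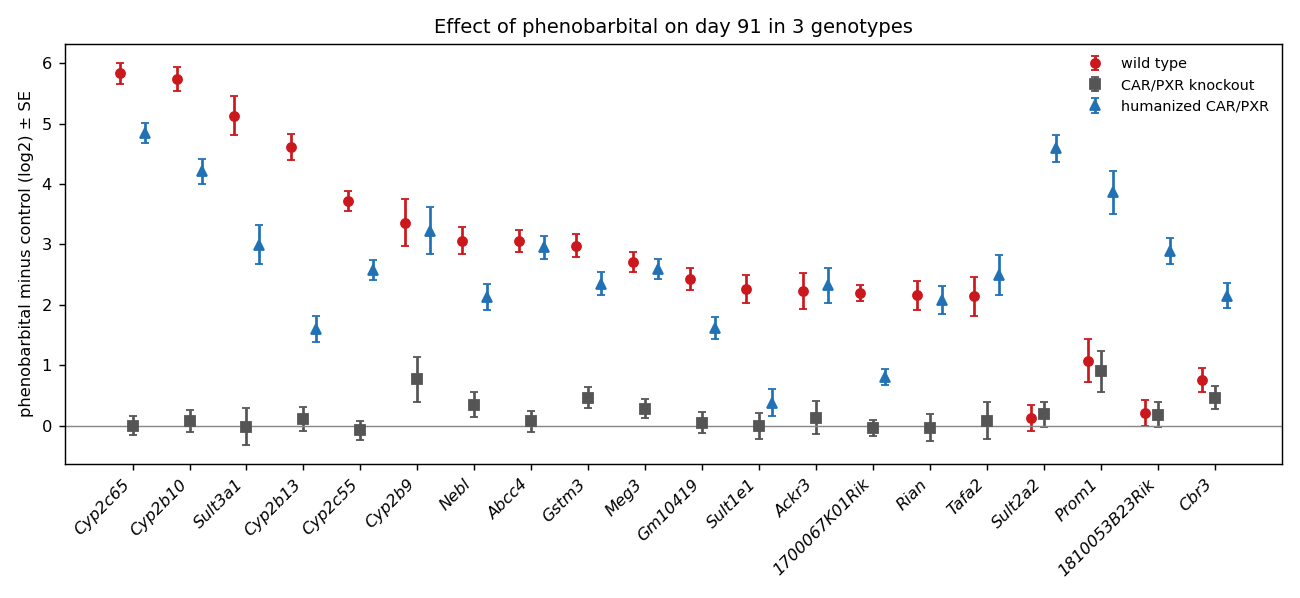
Effect of phenobarbital on day 91 (phenobarbital minus control, log2, with standard errors) in wild-type, CAR/PXR knockout and humanized mice for the 16 genes that rose most in wild type and for 4 genes with a larger humanized effect. The knockout effects of the 16 genes lie between −0.076 and 0.77, and Sult2a2 is at 0.13 in wild type and 4.59 in humanized mice.

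In 13 genes the day 91 effect differed from the effect on the earlier dosing days. Among the genes named in this report, it was larger than the mean effect of days 1, 7, 14 and 28 for Cyp2b13 (3.35 ± 0.24, adjusted p = 5.84e-24 by limma), Sult3a1 (2.74 ± 0.36, 1.26e-08), Abcc4 (1.56 ± 0.20, 1.26e-08), Tafa2 (1.54 ± 0.36, 0.0443), Meg3 (1.52 ± 0.19, 9.71e-10), Rian (1.27 ± 0.26, 0.00606), Hao2 (1.12 ± 0.22, 0.00407) and Sult1e1 (1.08 ± 0.26, 0.0443). It was smaller for Cyp2b10 (−0.96 ± 0.22, 0.0443), Cyp2c55 (−0.83 ± 0.18, 0.0181), the nuclear pore gene Nup205 (−0.54 ± 0.12, 0.0129) and the mitochondrial import gene Timm8a1 (−0.32 ± 0.065, 0.00456). With probe sets averaged the Meg3 difference was 0.78 and that of Nup205 −0.24 (adjusted p = 0.999 by limma), and that of Timm8a1 was −0.26 (adjusted p = 0.0933 by limma). Of all genes these 13 were 0.103%, with 9 larger (0.0713%) and 4 smaller (0.0317%) on day 91. The count was 7 without animal 2023, 8 without 1023 and 7 without 1025.

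Several of these calls were near the threshold. Tafa2 lost its call in 30 of 46 analyses that left out 1 animal (up to 0.272, without 2022) and Cyp2b10 in 20 of 46 (up to 0.497, without 1021). Cyp2c55 lost it without 2021, 2023, 1023 or 1025 (0.116 to 0.178) and Nup205 without 2023, 1023 or 1025 (0.0899 to 0.168).

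The time courses behind these differences were of several shapes. Cyp2b13 stood at 0.15, 0.75, 0.87 and 3.25 on days 1, 7, 14 and 28 and at 4.61 on day 91. Sult3a1 stood at 0.29, 2.82, 2.06, 4.38 and 5.13 on these days. Meg3 stood at −0.17, 0.54, 1.59, 2.77 and 2.70. None of these 3 genes was called on day 1, and Meg3 was at its day 91 size by day 28. Cyp2b10 stood at 6.50, 7.00, 6.59, 6.68 and 5.73, and Gadd45b at 1.32, 1.15, 1.40, 1.20 and 0.99. For both the day 1 effect was at least as large as that of day 91. Mcm5, called on days 1 and 7 (1.38 and 1.06), was not called on day 14 (0.44), day 28 (0.28) or day 91 (0.18). The test of the difference between day 91 and the earlier days did not pass for Mcm5 (−0.61 ± 0.25) or Mki67 (−0.59 ± 0.24).

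**Figure D5:**
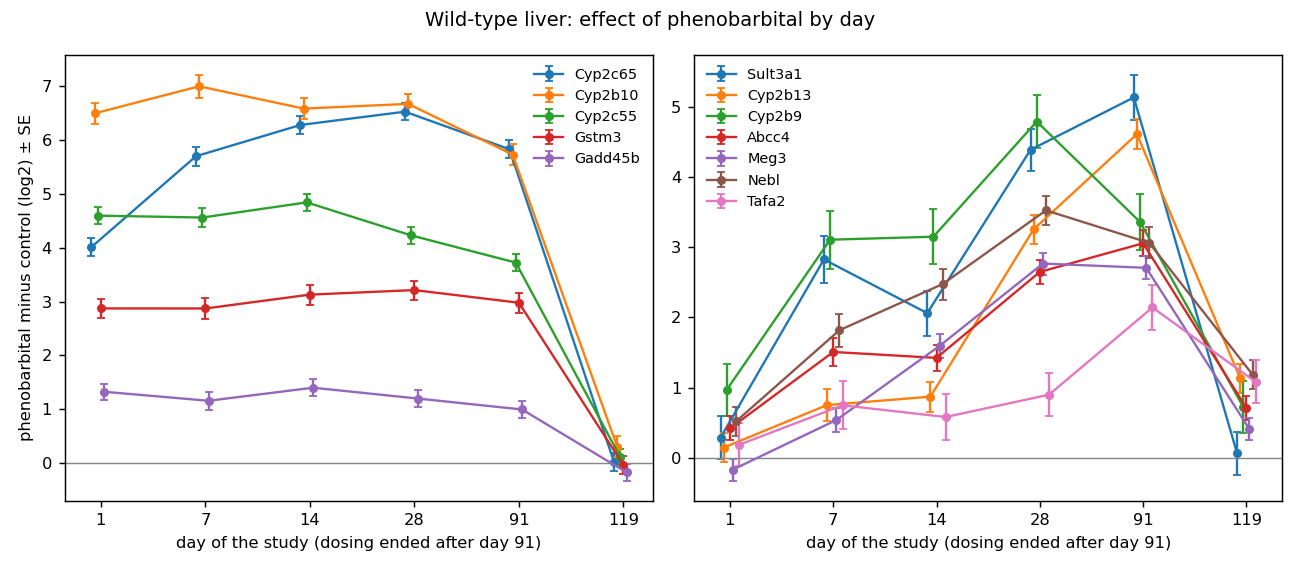
Effect of phenobarbital in wild-type liver (phenobarbital minus control, log2, with standard errors) by day, for genes with a large effect on day 1 (left, except that Cyp2c65 grew until day 28) and genes whose effect grew over weeks (right). The axis spaces the days evenly. On day 119, after dosing had ended, Cyp2b13 (1.13) and Nebl (1.19) were still called higher.

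The genes called on day 91 were also called on other days in changing numbers. Of the 183 rises, 105 were called higher on day 1 (57.4%, against 5.02% of all genes), 115 on day 7 (62.8%, 2.11%), 127 on day 14 (69.4%, 3.11%) and 152 on day 28 (83.1%, 3.61%). On day 119 it was 3 (1.64%, against 0.0238%). Of the 86 falls, 28 were called lower on day 1 (32.6%, 6.97%), 18 on day 7 (20.9%, 0.61%), 35 on day 14 (40.7%, 5.69%) and 34 on day 28 (39.5%, 1.93%), and none on day 119. Of the 16 largest rises 6 were called higher on day 1, 12 on day 7, 15 on day 14, 15 on day 28 and 2 on day 119. Each day has its own control animals. The number of genes called over the whole array varied between days, with 1514 on day 1 and 343 on day 7, so that the counts of different days are not on 1 scale.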

How the data were processed

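Liver RNA of 167 mice was measured on Affymetrix GeneChip mouse arrays, 1 array per animal, of which 9 are wild-type mice of day 91. Genotype, treatment, day and animal number come from the labels, per which replicates are separate animals. No label of a single sample gives a dose, and the treatment text, which states 0.05%, further names lower concentrations and a different age at the start. Per the submitters' processing notes the deposited values were made with RMA, which corrects background, normalizes by quantiles and summarises probes per probe set. The RMA version is not given in the sources used here, and the values are log2 expression as deposited by the authors (range 2.11 to 15.07), and 0 sample columns were left unused. For arrays the number of animals limits the precision. Scan dates and hybridisation batches were not analysed here.

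Of 45101 probe sets, 64 are the manufacturer's controls. Symbols came from the platform annotation, with 34958 probe sets of 1 symbol, 932 of several and 9211 of none, and 34741 matched a RefSeq gene table of GRCm38.p6 through Entrez numbers. The filter asked for a value over the array's median in 3 or more arrays of the whole series and removed 5572 dim genes. Over 2706 bright genes, 2 of 13861 array pairs had an SD of the log2 difference under 0.1 and no gene over 2-fold apart. Humanized animals 6026 and 6030 of day 119, which share all labels, were averaged to 1 sample. Wild-type arrays of day 91 differed by an SD of at least 0.15 in each of 36 pairs.

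Differences were fitted with limma 3.58.1 in R 4.3.3 (lmFit, eBayes, two-sided), with 36 group means over 166 samples (130 residual degrees of freedom), so that groups of 3 to 5 animals share 1 estimate of the spread. Adjustment of p-values followed Benjamini-Hochberg, separately for each contrast. The contrasts were the day 91 effect and its differences from the knockout and humanized effects of day 91 and from the mean wild-type effect of days 1, 7, 14 and 28. Effects of other days and genotypes come from the same model. The analysis was tested on simulated data. Promoters were aligned with Biopython 1.88 (match 1, mismatch −1, gap opening −3, extension −0.5).

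The comparison, the gene lists and the tests were chosen with earlier results of these data known. Named are the 16 largest rises and 10 largest falls among called genes without overlap between arms, a fixed set of phenobarbital, cell cycle and liver genes, up to 4 called members of each list and the 5 largest called differences each way. Other list members and the genes of the closing section were picked after their values were seen. Alternatives were quantile normalization, no or a stricter filter on dim genes, only the compared groups, the mean of all probe sets, a trended and robust prior, array weights, no averaging of near-identical arrays and leaving out each animal.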

Additional observations from a re-analysis of the deposited data

Results flagged for a closer look

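Among the 69 named genes, each checked in both arms (138 groups), 8 values of single animals were flagged as apart from their arm, relative to its range. Chance alone gives about 1 in 20 groups, and these 8 flags in 138 groups are near that rate. In the phenobarbital arm these were Itpr2 (6.26 in animal 2024, next 7.07), Pde5a (4.18 in animal 2024, next 4.30), Cdk1 (6.68 in animal 2024, next 6.48), Cyp2c29 (13.84 in animal 2025, next 13.96) and Rhbg (7.47 in animal 2021, next 7.71). In the control arm they were Tafa2 (4.27 in animal 1021, next 3.41), Nr1i2 (6.91 in animal 1022, next 7.44) and Cbr3 (5.51 in animal 1025, next 5.85). Animal 2024 holds 3 of the 5 flags of its arm.

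The day 91 effect of wild-type mice differed from the knockout effect by a direct test for Cyp2c65 (5.83), Cyp2b10 (5.66), Sult3a1 (5.15), Cyp2b13 (4.50) and Cyp2c55 (3.80) on the higher side, and for Pde5a (−0.95), Rdh16f2 (−0.95), H2bc21 (−0.92), H1f2 (−0.79) and Smim3 (−0.63) on the lower side. Against the humanized effect it was higher for Cyp2b13 (3.01), Sult3a1 (2.14), Sult1e1 (1.88), Cyp2b10 (1.53) and 1700067K01Rik (1.38), and lower for Sult2a2 (−4.47), Prom1 (−2.78), 1810053B23Rik (−2.69), Cbr3 (−1.40) and Simc1 (−0.62). Against the earlier dosing days it was higher for Cyp2b13 (3.35), Sult3a1 (2.74), Abcc4 (1.56), Tafa2 (1.54) and Meg3 (1.52), and lower for Cyp2b10 (−0.96), Cyp2c55 (−0.83), Nup205 (−0.54) and Timm8a1 (−0.32).

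Of 10092 probe sets with no gene symbol or several, which entered no comparison above, 3943 were bright enough to be tested and 36 were called on day 91. They comprised 28 higher and 8 lower in phenobarbital livers, with differences between −0.597 and 4.53.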

How the results depend on the processing

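No paired analysis was possible because the animal numbers differ between the arms. Of 45 named genes called on day 91, 26 kept direction and call in every alternative in which they were tested, and of 29 named differences of effects 15 did. No called named gene changed direction under any alternative. The count of called genes, 269, was 522 with array weights (278 higher, 244 lower, so 53.3% higher in place of 68%), 162 without animals 2025 and 1021 together, and 162 to 294 when 1 animal was left out. Under the other settings it ranged from 195 (only the compared groups) to 314 (quantile normalization). The 92 differences from the knockout were 57 with only the compared groups, 184 with array weights, 57 without animals 2025 and 1021, and 62 to 112 with 1 animal left out. The 13 differences from humanized mice were 10 to 21, and the 13 from earlier days 7 to 13, with 1 animal left out, and the latter were 8 under the stricter filter. Sign changes occurred only in genes near 0 that were not called on day 91: Cdk1 (0.012 with quantile normalization), Nup205 (0.0026 with quantile normalization, 0.022 with probe sets averaged) and, with 1 animal left out, Mki67 (−0.21 to 0.058), Top2a (−0.093 to 0.058), Cdk1 (−0.049 to 0.012), Nr1i2 (−0.082 to 0.14) and Nup205 (−0.083 to 0.025). With only the compared groups in the fit, which holds fewer samples, 12 named day 91 calls ended (adjusted p): Hsd3b5 (0.144), Ttc39c (0.0602), Itpr2 (0.211), Plce1 (0.0517), Slco1a1 (0.239), Nqo1 (0.0516), Peg3 (0.112), Notum (0.0656), Fbp1 (0.285), Ahr (0.102), Igf1 (0.0611) and Apoa1 (0.294). So did the differences of Rdh16f2 (0.157) and Smim3 (0.117) from the knockout, of Sult3a1 (0.579), Sult1e1 (0.463) and Cbr3 (0.414) from humanized mice, and of Cyp2c55 (0.326) and Nup205 (0.12) from earlier days. Prom1 (0.00296) and Pde5a (0.00082) were called there on day 91. Without animals 2025 and 1021 the calls of Foxa3 (0.0643), Tedc2 (0.0848), Adh6-ps1 (0.12), Snord104 (0.225), Srxn1 (0.0815), Peg3 (0.0745), Notum (0.0855), Fbp1 (0.195), Igf1 (0.0566), Apoa1 (0.122) and Simc1 (0.0572) ended, as did the differences of Pde5a (0.0883), Rdh16f2 (0.086), H2bc21 (0.173) and H1f2 (0.183) from the knockout and of Cyp2b10 (0.434) from earlier days. With probe sets averaged the calls of Ttc39c (0.061), Itpr2 (0.28), Slco1a1 (0.0877), Ahr (0.0503) and Simc1 (0.379) and the differences of H2bc21 (0.0544), Nup205 (0.999) and Timm8a1 (0.0933) ended, with quantile normalization Fbp1 (0.218) and Apoa1 (0.163), with array weights the difference of Smim3 (0.0708), and without the filter Fbp1 (0.0744), Apoa1 (0.053) and the differences of Pde5a (0.0505), Tafa2 (0.0602) and Cyp2b10 (0.0602). Without the filter on dim genes 241 genes were called, 10 of them dim, led by Rsph4a (0.76) and Cdx4 (0.62).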

Other observations

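Further genes that moved on day 91 were picked after their values were seen and carry no rule. Serpinb1a, an inhibitor of neutrophil elastase, had 9.77, 9.16, 9.75, 9.42 and 8.87 in phenobarbital livers, against 8.01, 7.20, 7.31 and 7.75 in control livers (1.83 ± 0.31, adjusted p = 6.56e-06 by limma). The G protein subunit Gna14 (1.44 ± 0.20) and the stress-responsive Ndrg1 (1.27 ± 0.26) rose in all 5 phenobarbital animals over all controls. The transferrin receptor Tfrc, which brings iron into cells, had 9.84, 10.47, 9.99, 10.37 and 10.68 in phenobarbital livers, against 9.52, 8.90, 9.04 and 9.09 in control livers (1.13 ± 0.23, adjusted p = 0.000524 by limma). Dio1, the deiodinase that activates thyroid hormone in the liver, rose by 0.80 ± 0.19 and Stbd1, a glycogen-binding protein, by 0.93 ± 0.21. The carriers Slc22a27 (5.76, 5.40, 5.50, 4.53 and 4.72 in phenobarbital livers against 4.11, 4.26, 3.77 and 4.22 in control livers), Slc22a26 (0.62 ± 0.12) and Slc22a29 (1.00 ± 0.21) were called among 16 tested genes of the Slc22a family, and animal 2024 was lowest of its arm for each of them. Probe sets of related carriers can share signal, so these may not be separate observations. How far they shared it was not tested. Of 48 proteasome subunits 5 were called higher, by 0.15 to 0.26, and 0 lower (median 0.054). Of 7 mu-class glutathione transferases 6 were called higher. Over all genes tested, 1.45% were called higher and 0.681% lower. The families, too, were picked after the values were seen.

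Of 6 tested complement genes matched by symbol, which leaves out those of C1q, 2 were called lower and 0 higher. Of all genes tested, 0.681% were called lower, and none of the 20 acute phase proteins was called lower by limma. The complement component C9 had 12.39, 12.32, 12.24, 12.78 and 12.60 in phenobarbital livers, against 12.98, 12.87, 12.86 and 13.04 in control livers (−0.47 ± 0.081, adjusted p = 8.64e-06 by limma). C8a (−0.32 ± 0.081), the other of the 2, and the plasma protein genes Itih3 (−0.48 ± 0.089) and Ahsg (−0.33 ± 0.057) were lower in all 5 phenobarbital animals than in every control. Kap, an androgen-regulated gene best known from kidney, was called (−0.88 ± 0.26, adjusted p = 0.0426 by limma), although only control animals 1022 (6.24) and 1025 (8.04) lay above the phenobarbital range of 5.00 to 5.67.

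Single animals stood apart in genes that were not called. The monooxygenase-like Moxd1 had 4.31, 4.05, 3.92, 8.29 and 6.02 in phenobarbital livers and 4.07, 4.31, 5.41 and 4.04 in control livers. The peroxisomal carrier Abcd2 had 6.13, 6.12, 6.23, 4.28 and 5.08 in phenobarbital livers and 5.31, 5.80, 5.71 and 4.48 in control livers, and the interferon-induced Usp18 had 7.37, 7.44, 7.18, 8.37 and 8.24 in phenobarbital livers and 7.08, 7.31, 7.13 and 7.16 in control livers. Animals 2024 and 2025 differed most from the rest of their arm in all 3 genes. The pancreas enzyme Cpa1 stood at 9.18 in phenobarbital animal 2025 and 7.23 in control animal 1021, against 4.02 to 4.46 elsewhere. Immunoglobulin mu, Ighm, had 9.89, 10.72, 11.42, 10.95 and 11.15 in phenobarbital livers and 8.97, 10.65, 8.86 and 9.42 in control livers (1.35 ± 0.43, adjusted p = 0.0747 by limma).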
